A study of Rattus norvegicus with 19 samples.

Results

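The comparison described here sets plasma small RNA after severe traumatic brain injury (sTBI) against plasma small RNA of naive rats. Its members are the 5 libraries titled as severe TBI and the 4 titled as naive, 9 of the 19 libraries of the series, and they were chosen by these titles alone. The study looked for plasma miRNAs that mark brain injury, and it also sequenced 5 rats with mild injury (mTBI) and 5 sham-operated rats. All rats were adult male Sprague-Dawley animals, and 1 library was made from the tail-vein plasma of each rat at 2 days. The sTBI rats were anaesthetised with isoflurane, given local lidocaine, opened by a craniectomy over the left hemisphere and hit with a strong lateral fluid-percussion pulse, and they then received buprenorphine, saline and soft food. The naive rats were anaesthetised briefly with isoflurane on the same day and had no surgery. Impact, craniectomy, drugs and aftercare therefore cannot be told apart in sTBI against naive, and the values of the sham and mTBI rats are given beside the miRNAs that the results turn on. The mTBI rats had the same surgery and a weaker pulse, and the sham rats had the surgery and drugs without the impact. Aftercare differed too, since only sTBI rats had soft food and only sTBI and mTBI rats had saline on the day after. The study reported deaths before sampling in the sTBI group alone, so the sTBI libraries are from survivors.

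A miRNA is cut from a hairpin that gives a 5p and a 3p arm, and its bases 2 to 8, the seed, pair with target mRNAs. Most plasma miRNA comes from blood cells, endothelium and liver, and tissue that is damaged releases its own miRNAs, so that miRNAs abundant in brain have been studied in blood after injury. miR-9a, miR-124, miR-129 and miR-137 are abundant in neurons or neural progenitors. The Dlk1-Dio3 region is an imprinted locus that holds a large miRNA cluster, and many of its miRNAs are highly expressed in brain and in embryonic and placental tissue. Plasma holds RNA from many tissues, so a list of miRNAs named for a tissue says where they are abundant and not where these molecules came from. Release by more cells and release of more RNA per cell cannot be told apart in plasma.

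The mature sequences of 10 miRNAs called higher are shown so that their seeds can be compared. They are the 9 called in every alternative tried, and miR-384-5p, whose seed is taken up again with the miR-30 family. The sequences are from RefSeq (build GRCr8), written 5′ to 3′ with the seed in capitals.
miR-9a-3p: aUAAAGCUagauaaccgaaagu
miR-9a-5p: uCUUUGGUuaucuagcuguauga
miR-129-5p: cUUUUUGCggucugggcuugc
miR-384-5p: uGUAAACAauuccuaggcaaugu
miR-323-3p: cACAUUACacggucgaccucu
miR-434-3p: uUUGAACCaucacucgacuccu
miR-3543: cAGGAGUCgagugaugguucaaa
miR-134-5p: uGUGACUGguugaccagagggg
miR-382-5p: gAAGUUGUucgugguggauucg
miR-136-3p: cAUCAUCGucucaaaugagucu
Each of these 10 seeds differed from the others. RefSeq held 32 of the 35 miRNAs called below. miR-3543 is the reverse complement of miR-434-3p over 22 bases, since its gene lies on the opposite strand of the same place, and miR-9b-5p pairs with miR-9a-3p over 19 bases in the same way. The counting is not stated to use strand, so reads of such partners cannot be told apart with certainty.

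The libraries held from 2851406 to 3584618 miRNA UMIs (unique molecular indices, which count each captured molecule once) after sTBI and from 2894711 to 5041094 in naive rats. Naive libraries 1 and 3, and with them mTBI libraries 2 and 5, stood apart on the first principal component of all 19 libraries, which took 35.85% of the variance. The naive pair had scores of -27.3 and -29.98, against 2.914 to 18.72 for the sTBI libraries and 6.342 and 3.681 for naive libraries 2 and 4. Naive libraries 1 and 3 also had more miRNA per spike-in RNA than the other sTBI and naive libraries, with 12.8 and 15.0 miRNA UMIs per spike-in UMI, against 5.61 to 7.39 after sTBI and 6.64 and 7.24 in naive libraries 2 and 4. Results are given with them and, where it matters, without them. The lowest miRNA count above 0 was 10 in sTBI libraries 1 and 4 and in naive library 2, so a value of 0 in these libraries can stand for a count under 10. Hemolysis can be followed by the ratio of the red cell miRNA miR-451-5p to miR-23a-3p, which was 0.0918 to 0.226 after sTBI and 0.0714 to 0.162 in naive rats (exact two-sided permutation p = 0.317).

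Differential expression between sTBI and naive was tested with edgeR's quasi-likelihood test and Benjamini-Hochberg adjustment over 713 miRNAs, and a miRNA is called where its adjusted p was under 0.05. A total of 35 miRNAs were called, 4.91% of those tested, with 31 higher (4.35%) and 4 lower (0.561%) after sTBI. Without naive libraries 1 and 3, edgeR called 9 of 732 miRNAs, all higher and all among the 35. Levels are given below as CPM, the UMIs per 1000000 miRNA UMIs after library totals were corrected with TMM factors. Every one of the 5 sTBI values lay above every one of the 4 naive values for 56 miRNAs (7.85% of those tested) and below them for 10 (1.4%). Of the 31 miRNAs called higher, 30 had no overlap between the groups. They were mostly of low level: 26 of the 31 averaged under 100 CPM, and together they made 0.24% of the CPM after sTBI and 0.0647% in naive rats. With library totals in place of TMM factors, 35 miRNAs were again called, all of them higher. Of these, 31 were the miRNAs called higher with TMM factors, and the 4 called lower with TMM factors were not called. The median log2 fold change over all miRNAs was then 0.36 in place of 0.03. With spike-in totals this median was -0.20, and 14 miRNAs were called higher and 1 lower.

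**Figure D1:**
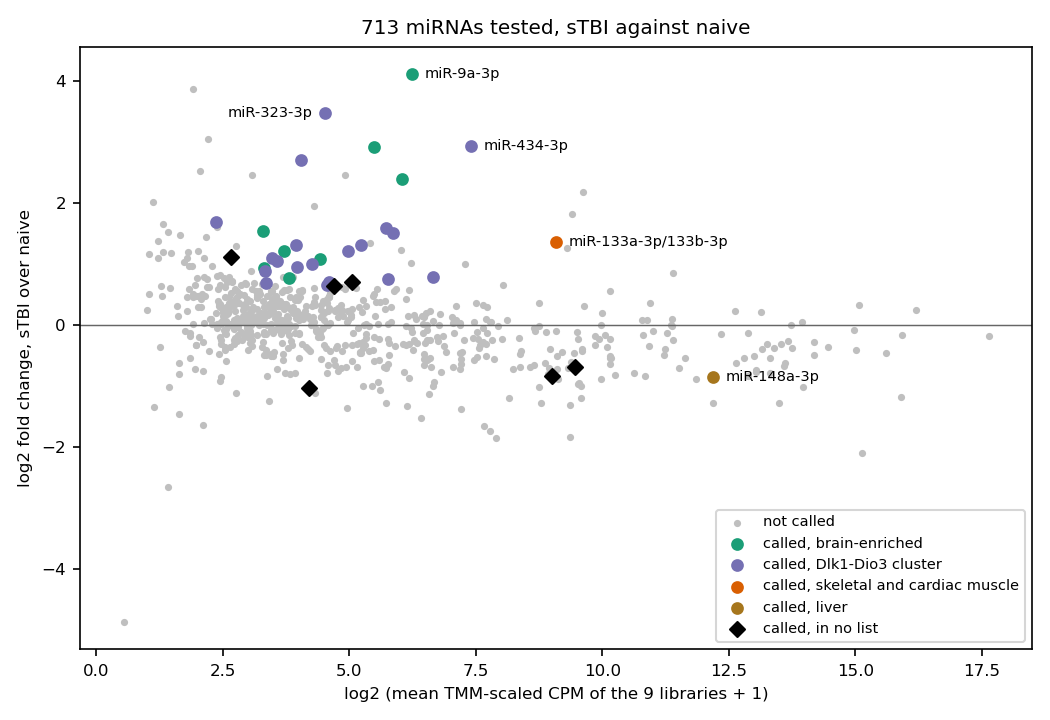
The log2 fold change of sTBI over naive for each of the 713 miRNAs tested (y axis) against the log2 of its mean TMM-scaled CPM over the 9 libraries plus 1 (x axis), with the 35 called miRNAs coloured by list. miR-9a-3p stands highest at 4.11, and the called miRNAs of the Dlk1-Dio3 and brain-enriched lists all lie above 0.

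The largest increase was that of miR-9a-3p, made from the same hairpins as miR-9a-5p and abundant in neural tissue. It was at 112, 169, 164, 102 and 97.0 CPM after sTBI, against 8.28, 7.41, 6.01 and 7.84 CPM in naive rats. The groups lay far apart, with sTBI libraries 2 and 3 highest. Its log2 fold change was 4.11 (SE 0.32, edgeR adjusted p = 2.55e-09), a 17.3-fold difference. miR-9a-5p, the other arm, was at 98.2, 110, 98.6, 77.8 and 124 CPM after sTBI, against 14.1, 24.1, 21.2 and 17.7 CPM in naive rats. It rose by less than the 3p arm, with a log2 fold change of 2.40 (SE 0.22, edgeR adjusted p = 4.47e-08). The log2 ratio of the 3p to the 5p arm averaged 0.31 ± 0.43 after sTBI (SD, n = 5) and -1.33 ± 0.47 in naive rats (SD, n = 4), and all 5 sTBI values of this ratio lay above the naive ones.

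miR-129-5p, which comes from a pair of genes on chromosomes 3 and 4, was at 72.6, 83.7, 70.4, 61.3 and 69.1 CPM after sTBI, against 8.03, 8.03, 7.07 and 14.7 CPM in naive rats. The sTBI libraries lay within a narrow band, and naive library 4 was the highest naive one. The log2 fold change was 2.92 (SE 0.21, edgeR adjusted p = 1.05e-09). Its other arm miR-129-3p also rose, by 1.54 on the log2 scale (SE 0.35, edgeR adjusted p = 0.0109), with means of 12.4 ± 2.87 CPM after sTBI (SD, n = 5) and 4.26 ± 1.53 CPM in naive rats (SD, n = 4).

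Among the other miRNAs of the brain-enriched list, miR-384-5p was at 10.5, 17.5, 14.7, 14.5 and 24.0 CPM after sTBI, against 7.28, 6.49, 7.07 and 6.82 CPM in naive rats. The naive values were nearly equal, and all sTBI values were above them (log2 fold change 1.22, SE 0.23, edgeR adjusted p = 0.00173). Its seed is also that of the widely expressed miR-30 family, shown here beside it.
miR-384-5p: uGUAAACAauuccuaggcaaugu
miR-30a-5p: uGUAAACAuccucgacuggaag
miR-30c-5p: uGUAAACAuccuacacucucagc
miR-30e-5p: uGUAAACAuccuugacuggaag
The miR-30 members were not called and had negative log2 fold changes, -0.79 for miR-30a-5p, -0.49 for miR-30c-5p and -0.63 for miR-30e-5p (edgeR adjusted p from 0.154 to 0.294). These values rested on naive libraries 1 and 3, without which they were 0.11, 0.0084 and -0.07, so that 2 of them turned their sign. miR-137-3p, a neuronal miRNA, averaged 26.5 ± 5.20 CPM after sTBI (SD, n = 5) and 12.6 ± 2.67 CPM in naive rats (SD, n = 4), with a log2 fold change of 1.08. miR-873-3p had a log2 fold change of 0.78, and miR-219a-2-3p, from a hairpin known for its oligodendrocyte miRNA, one of 0.94 (edgeR adjusted p = 0.0215 and 0.0260). miR-219a-5p and miR-219a-1-3p were not called, with log2 fold changes of -0.38 and 0.13 (edgeR adjusted p = 0.304 and 0.752).

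In all, 8 of the 62 brain-enriched miRNAs tested were called higher and none lower, against 4.35% called higher over all 713 miRNAs. Their median log2 fold change was 0.25, against 0.03 over all miRNAs. DESeq2 called 12 higher and 1 lower, against 43 higher and 25 lower of all 713 miRNAs. The list made 0.871 to 1.1% of miRNA UMIs after sTBI (median 0.94%) and 0.421 to 0.897% in naive rats (median 0.699%). When naive libraries 1 and 3 were left out, 3 of the list were called higher, against 9 of 732 over all miRNAs (1.23%). They were miR-129-5p and both arms of miR-9a, and the median of the list was 0.13. Not all members moved this way: 45 of the 62 (72.6%) had a positive log2 fold change, against 53.3% of all 713 miRNAs. Members with negative values included miR-488-3p (log2 fold change -0.81, edgeR adjusted p = 0.0771) and miR-338-3p (log2 fold change -1.36, edgeR adjusted p = 0.207), neither called. miR-128-3p had a log2 fold change of 0.23 (edgeR adjusted p = 0.574), and miR-153-3p, a neuronal miRNA that was among the candidates of the study, was at 4.05 to 6.08 CPM after sTBI and 3.26 to 5.11 CPM in naive rats (log2 fold change 0.22, edgeR adjusted p = 0.755). miR-124-3p, the most abundant neuronal miRNA, was chosen for mention after its values were seen. It was at 20.0, 18.3, 22.2, 19.1 and 151 CPM after sTBI, against 5.52, 11.1, 6.72 and 9.88 CPM in naive rats. All sTBI values were above the naive ones, but sTBI library 5 stood far above the other 4 sTBI libraries, and the test did not call it (log2 fold change 2.46, SE 0.91, edgeR adjusted p = 0.135).

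**Figure D2:**
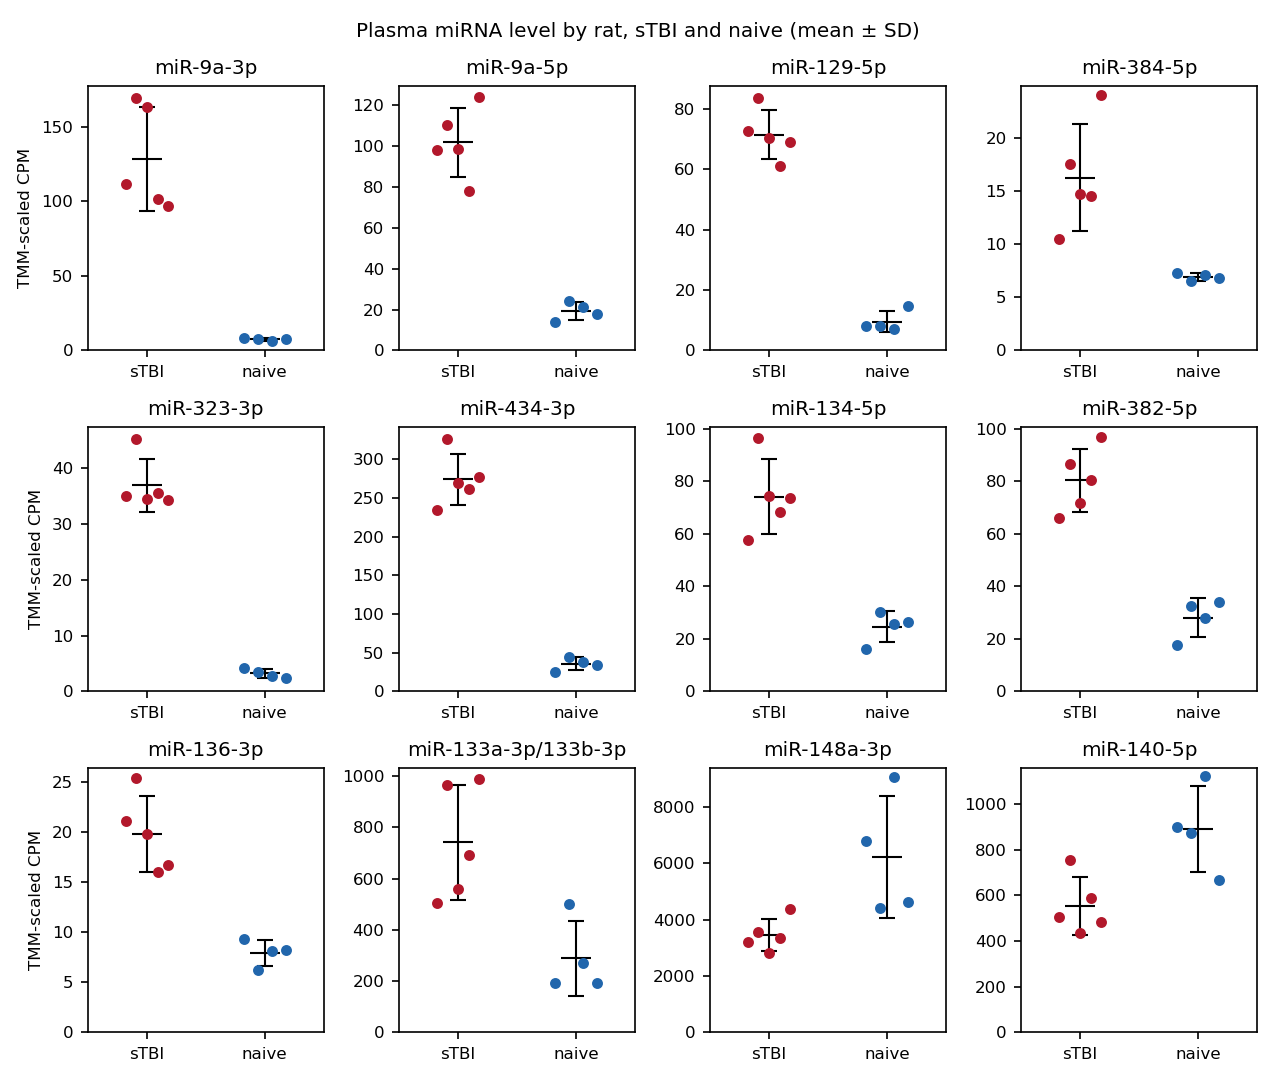
TMM-scaled CPM (y axis, from 0) of 12 called miRNAs in the 5 sTBI and the 4 naive libraries, each point 1 rat, with the group mean and SD in black. The first 10 panels show miRNAs higher after sTBI, with no overlap between groups, and the last panels show miR-148a-3p and miR-140-5p, lower after sTBI.

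The Dlk1-Dio3 region held most of the calls: 19 of its 90 listed miRNAs tested were higher, against 4.35% of all miRNAs, none was lower, and the median log2 fold change was 0.45. DESeq2 called 20 higher and 1 lower, against 43 higher and 25 lower of all 713 miRNAs. Of the 90, 73 (81.1%) had a positive log2 fold change, against 53.3% of all 713 miRNAs. With naive libraries 1 and 3 left out, 6 were called higher, against 9 of 732 over all miRNAs (1.23%), 55 had a positive log2 fold change and the median was 0.15. These 6 were miR-323-3p, miR-434-3p, miR-3543, miR-134-5p, miR-382-5p and miR-136-3p. The list made 0.219 to 0.282% of miRNA UMIs after sTBI and 0.121 to 0.184% in naive rats.

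miR-323-3p was at 35.1, 45.3, 34.5, 35.6 and 34.2 CPM after sTBI, against 4.27, 3.40, 2.83 and 2.39 CPM in naive rats. The groups did not overlap, and 4 of the 5 sTBI libraries were nearly equal. Its log2 fold change was 3.48 (SE 0.21, edgeR adjusted p = 7.96e-11), the smallest p of all miRNAs. The other arm, miR-323-5p, had a log2 fold change of 0.17 (edgeR adjusted p = 0.732), with means of 80.4 ± 13.0 CPM after sTBI (SD, n = 5) and 71.6 ± 18.2 CPM in naive rats (SD, n = 4). The log2 ratio of the 3p to the 5p arm averaged -1.11 ± 0.30 after sTBI (SD, n = 5) and -4.34 ± 0.54 in naive rats (SD, n = 4).

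miR-434-3p, a rodent miRNA that was also a candidate of the study, was at 235, 327, 270, 262 and 277 CPM after sTBI, against 25.1, 44.8, 38.2 and 34.4 CPM in naive rats. All sTBI libraries were several times above the highest naive one, and the log2 fold change was 2.94 (SE 0.22, edgeR adjusted p = 1.05e-09). Its antisense partner miR-3543 was at 17.8, 29.6, 28.2, 21.4 and 27.5 CPM after sTBI, against 3.26, 5.87, 2.47 and 3.41 CPM in naive rats. Its log2 fold change was 2.71 (SE 0.25, edgeR adjusted p = 3.81e-08). The log2 ratio of miR-434-3p to miR-3543 averaged 3.46 ± 0.19 after sTBI (SD, n = 5) and 3.18 ± 0.43 in naive rats (SD, n = 4), and these values overlapped. The other arm miR-434-5p averaged 10.5 ± 1.86 CPM after sTBI (SD, n = 5) and 6.58 ± 1.42 CPM in naive rats (SD, n = 4), and it was not called (log2 fold change 0.68, edgeR adjusted p = 0.131).

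miR-134-5p, known from neurons as a regulator of dendritic spines, was at 57.5, 96.6, 74.2, 68.4 and 73.6 CPM after sTBI, against 16.3, 30.3, 25.8 and 26.2 CPM in naive rats. The log2 fold change was 1.59 (SE 0.19, edgeR adjusted p = 3.11e-06), whereas its other arm miR-134-3p had a log2 fold change of 0.15 (edgeR adjusted p = 0.754). miR-382-5p was at 66.1, 86.6, 71.7, 80.4 and 96.7 CPM after sTBI, against 17.8, 32.4, 27.9 and 34.1 CPM in naive rats (log2 fold change 1.52, SE 0.21, edgeR adjusted p = 2.62e-05). miR-136-3p, a candidate of the study, was at 21.04, 25.4, 19.7, 16.0 and 16.6 CPM after sTBI, against 9.29, 6.18, 8.13 and 8.18 CPM in naive rats. Its groups did not overlap, and its log2 fold change was 1.31 (SE 0.20, edgeR adjusted p = 9.58e-05).

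miR-668 and miR-341 had log2 fold changes of 1.32 and 1.22. miR-487b-3p had one of 1.69 on low counts, at 4.32, 9.68, 6.49, 6.27 and 3.20 CPM after sTBI, against 2.51, 0, 2.47 and 2.39 CPM in naive rats. Its naive zero was in library 2, whose table lists no miRNA count from 1 to 9. The other 10 called miRNAs of the region, among them miR-127-3p, miR-154-5p, miR-300-3p, miR-369-5p, miR-379-5p and miR-433-3p, had log2 fold changes from 0.66 to 1.10.

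The region was also described in gene order, which RefSeq gives for 91 of the miRNAs tested. Over all 713 miRNAs, 4.35% were called higher and the median log2 fold change was 0.03. In the first stretch, with 7 genes from Mir770 to Mir665, none of 12 miRNAs was called, with a median log2 fold change of 0.46. In the next, with 9 genes from Mir431 to Mir370, 7 of 13 were called higher, with a median of 0.70. These 13 leave out miR-127-5p and miR-136-5p, other arms from this stretch that were tested and not called (log2 fold change -0.08 and -0.15). In the long stretch of 38 genes from Mir379 to Mir410, 12 of 64 were called higher, with a median of 0.44. Calls were thus spread over both later stretches, beside neighbours that were not called, such as miR-410-3p (log2 fold change -0.36) and miR-411-5p (log2 fold change -0.63).

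**Figure D3:**
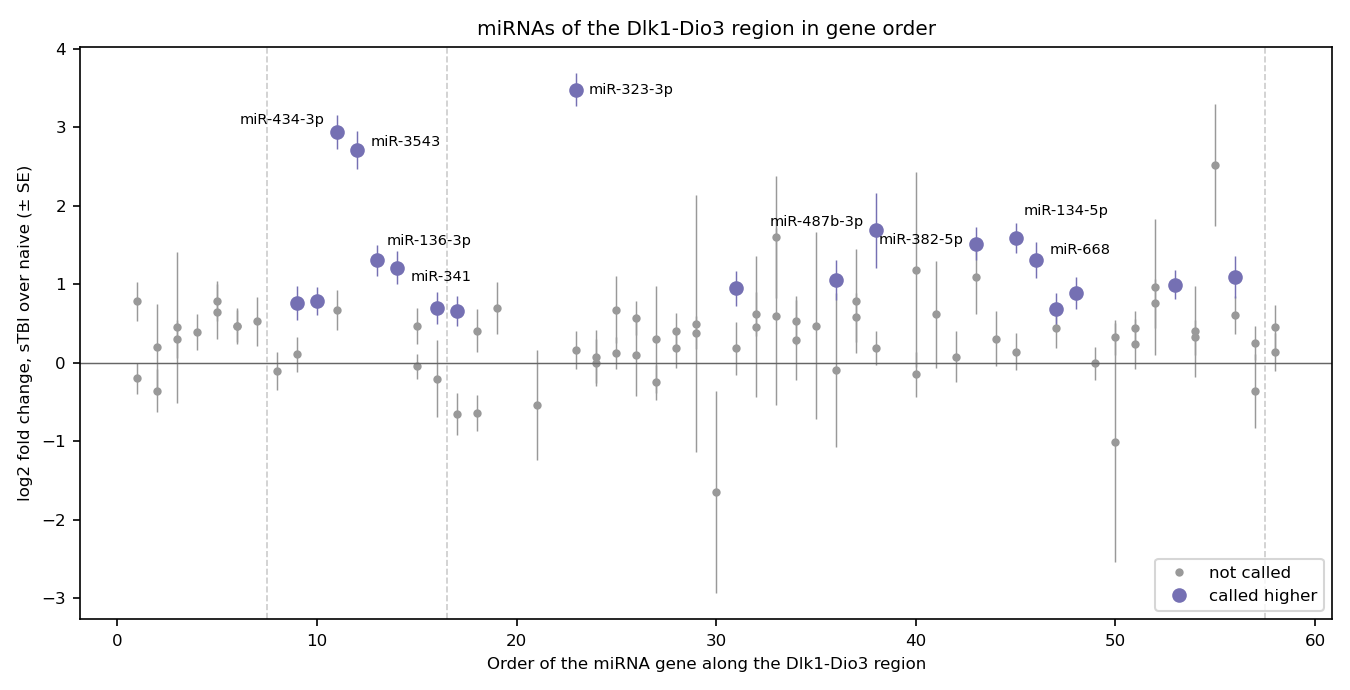
The log2 fold change of sTBI over naive with its SE (y axis) for the 91 miRNAs of the Dlk1-Dio3 region, placed by the order of their genes (x axis), with dashed lines between the stretches named in the text. Called miRNAs are large points. miR-323-3p, miR-434-3p and miR-3543 stand well above their neighbours.

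Several of these hairpins had 1 arm called and the other not. Beside miR-323, miR-434 and miR-134, this was so for miR-127, where the 3p arm had a log2 fold change of 0.79 and the 5p arm -0.08, for miR-379, where the 5p arm had 0.66 and the 3p arm -0.65, and for miR-370, where the 3p arm had 0.70 and the 5p arm -0.20. For all 3 of these hairpins the log2 ratio of the called arm to the other arm was higher in every sTBI library than in every naive library. The same held for miR-433. Other hairpins of the region with 1 arm called had fewer sTBI ratios above all naive ones. The number was 0 for miR-136 and miR-382, 1 for miR-300 and 2 for miR-667. It was 3 for miR-369 and miR-487b and 4 for miR-485. These hairpins were picked because 1 arm was called, so the ratios are a description.

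Of the skeletal and cardiac muscle list, 13 of 14 miRNAs tested had a positive log2 fold change, against 53.3% of all 713 miRNAs, and the median was 1.01. edgeR called 1 higher and none lower, against 4.35% and 0.561% of all miRNAs. The count was larger with DESeq2, at 5 higher and 1 lower with UMIs, and at 6 higher and 1 lower with reads of the sTBI and naive libraries. Over all miRNAs DESeq2 called 43 of 713 higher and 25 lower with UMIs, and 44 of 745 higher and 51 lower with these reads. edgeR fitted to the sTBI and naive libraries alone called 4 of 13 higher, against 34 of 687 over all miRNAs. The called feature merges the reads of 2 near-identical muscle miRNAs, miR-133b-3p and miR-133a-3p. It was at 504, 965, 561, 690 and 990 CPM after sTBI, against 191, 500, 271 and 194 CPM in naive rats. The groups touched, since the highest naive value, in library 2, lay just under the lowest sTBI value, in library 1 (log2 fold change 1.36, SE 0.38, edgeR adjusted p = 0.0426). miR-1b was at 62.3 to 125 CPM after sTBI and 34.1 to 60.1 CPM in naive rats, and it was not called (log2 fold change 1.02, edgeR adjusted p = 0.0720), nor was miR-206-3p (log2 fold change 1.27, edgeR adjusted p = 0.121). miR-499-5p, a heart and slow-muscle miRNA, had a negative value, with 3.93 to 7.82 CPM after sTBI and 4.63 to 23.0 CPM in naive rats, and it was not called (log2 fold change -1.25, edgeR adjusted p = 0.121). edgeR called none of the list when naive libraries 1 and 3 were left out, and the median was then 0.77.

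The 4 miRNAs called lower did not share a seed or a gene locus. miR-148a-3p, abundant in liver, was at 3194, 3554, 2822, 3351 and 4370 CPM after sTBI, against 6789, 4423, 9074 and 4630 CPM in naive rats. It fell without overlap, but by a narrow margin in naive library 2 (log2 fold change -0.85, SE 0.23, edgeR adjusted p = 0.0355). Naive libraries 1 and 3 were highest, and without them its log2 fold change was -0.45 (edgeR adjusted p = 0.749). miR-148a-3p shares its seed with miR-148b-3p and miR-152-3p, which were not called (log2 fold change -0.68 and -1.31, edgeR adjusted p = 0.129 and 0.158; without naive libraries 1 and 3, -0.14 and -0.01).
miR-148a-3p: uCAGUGCAcuacagaacuuug
miR-148b-3p: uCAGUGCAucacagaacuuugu
miR-152-3p: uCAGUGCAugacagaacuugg
miR-181b-1-3p was at 8.36 to 16.0 CPM after sTBI and 14.3 to 33.2 CPM in naive rats (log2 fold change -1.04, edgeR adjusted p = 0.0272). miR-872-5p was at 270 to 513 CPM after sTBI and 469 to 964 CPM in naive rats (log2 fold change -0.84, edgeR adjusted p = 0.0464). miR-140-5p, known from cartilage, was at 436 to 757 CPM after sTBI and 667 to 1124 CPM in naive rats (log2 fold change -0.68, edgeR adjusted p = 0.0464). The groups overlapped for these 3 miRNAs, and naive library 3 was the highest of all 9 libraries for each. In the fit without naive libraries 1 and 3 none of the 4 was called, with edgeR adjusted p from 0.523 to 0.836.

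The liver list had 1 of 14 miRNAs called lower by edgeR, against 0.561% of all miRNAs, and none higher, with a median log2 fold change of -0.71. DESeq2 called 4 lower, against 25 of 713 over all miRNAs. On read counts of the sTBI and naive libraries it called 5 lower, against 51 of 745. edgeR called 5 lower without naive library 2, against 27 of 723, and 5 without naive library 4, against 28 of 722. It called none lower, in the list or over all miRNAs, without naive library 1 or 3. The best known liver miRNA, miR-122-5p, was at 59951, 27401, 23689, 53185 and 30020 CPM after sTBI, against 105560, 16730, 183748 and 47215 CPM in naive rats, a wide overlap (log2 fold change -1.18, edgeR adjusted p = 0.330). In the vascular and stromal list edgeR and DESeq2 on UMI counts called none of 20. DESeq2 on read counts of the sTBI and naive libraries called 5 lower, against 51 of 745 over all miRNAs. In this list 4 had an unadjusted edgeR p under 0.05, against 23.6% of all miRNAs, 19 had a negative log2 fold change and the median was -0.55. Its miR-143-3p, a smooth muscle miRNA, was at 4544 to 23464 CPM after sTBI, against 127421 and 103388 CPM in naive libraries 1 and 3 and 8868 and 11572 CPM in naive libraries 2 and 4. Leaving out naive libraries 1 and 3, the median of the liver list was -0.11 and that of the vascular and stromal list 0.12, so the second turned its sign.

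None of the 25 erythrocyte, 19 leukocyte or 18 epithelial and endocrine miRNAs tested was called, and the medians of these lists were 0.08, -0.10 and 0.13. At an unadjusted p under 0.05 the numbers were 2, 2 and 1, against 168 of all 713 miRNAs (23.6%). With DESeq2, 1 of the leukocyte list was called lower, against 25 of all 713 miRNAs, and none of the other pair of lists was called. The erythrocyte list made 22.6 to 39.3% of miRNA UMIs after sTBI and 18.2 to 38.6% in naive rats, the leukocyte list made 12.7 to 13.9% after sTBI and 8.21 to 16.2% in naive rats, and the epithelial and endocrine list made 0.353 to 1.95% after sTBI and 0.334 to 1.25% in naive rats. The share of miR-16-5p, the most abundant miRNA, was 21.3 ± 3.19% after sTBI (SD, n = 5) and 19.4 ± 4.53% in naive rats (SD, n = 4). miR-183-5p, which with miR-182 comes from 1 gene cluster, was at 406, 357, 1661, 256 and 3327 CPM after sTBI, against 394, 218, 247 and 203 CPM in naive rats. sTBI libraries 3 and 5 held the high values, and it was not called (log2 fold change 2.18, SE 0.86, edgeR adjusted p = 0.154).

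Of the remaining miRNAs called higher, 3 were in no list. miR-504 was at 34.5 to 44.8 CPM after sTBI and 18.8 to 31.2 CPM in naive rats (log2 fold change 0.70, edgeR adjusted p = 0.0260). miR-3593-5p averaged 29.6 ± 3.39 CPM after sTBI (SD, n = 5) and 19.0 ± 0.471 CPM in naive rats (SD, n = 4), with a log2 fold change of 0.64. miR-295-3p, of an embryonic stem cell cluster, was at 5.13 to 9.74 CPM after sTBI and 1.77 to 4.02 CPM in naive rats (log2 fold change 1.11, edgeR adjusted p = 0.0210). miR-15a-3p, a candidate of the study, was at 4.32, 3.93, 4.24, 7.41 and 4.48 CPM after sTBI, against 2.26, 0, 2.47 and 2.39 CPM in naive rats, and it was not called (log2 fold change 1.44, SE 0.64, edgeR adjusted p = 0.183). The normalizer of the study, miR-28-3p, was at 472 to 560 CPM after sTBI and 509 to 918 CPM in naive rats (log2 fold change -0.44, edgeR adjusted p = 0.281).

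The 9 miRNAs called without naive libraries 1 and 3 included the 6 with the largest change among the 35 called in the fit with all libraries. Their log2 fold changes were then 4.02 for miR-9a-3p, 3.60 for miR-323-3p, 2.73 for miR-434-3p, 2.60 for miR-129-5p, 2.35 for miR-3543, 2.23 for miR-9a-5p, 1.41 for miR-136-3p, 1.33 for miR-134-5p and 1.21 for miR-382-5p. The highest of their edgeR adjusted p was 0.00541, for miR-382-5p. The remaining 22 miRNAs called higher all had positive log2 fold changes in that fit, from 0.40 for miR-504 to 2.29 for miR-487b-3p, and none was called. The fit without these libraries rests on only 2 naive rats.

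**Figure D4:**
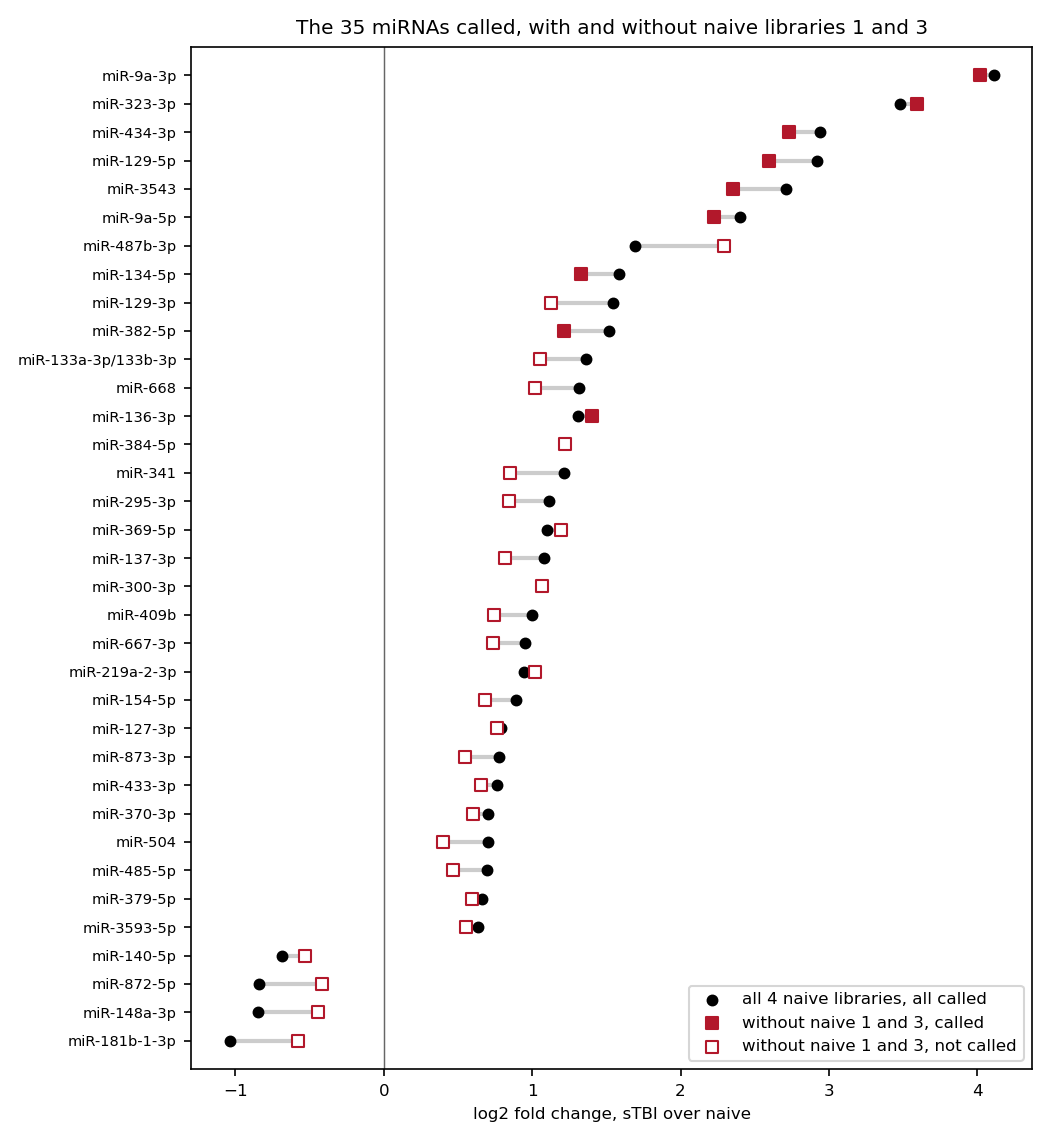
The log2 fold change of sTBI over naive (x axis) of the 35 called miRNAs in the fit with all 4 naive libraries (circles) and in the fit without naive libraries 1 and 3 (squares, filled where called). All squares lie on the same side of 0 as their circles, and the 9 filled ones include the 6 largest changes among these 35 in the fit with all libraries.

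The same sTBI libraries were set against the sham-operated and the mTBI libraries, to place the changes beside surgery without impact and a milder impact. Aftercare also differed between these groups. These comparisons share the sTBI libraries with sTBI against naive, so they are not independent of it. edgeR called 13 miRNAs higher in sTBI than in sham (1.82% of 713) and 21 higher in sTBI than in mTBI (2.95%). miR-9a-3p averaged 129 ± 34.96 CPM after sTBI, 31.8 ± 12.3 CPM after mTBI and 10.0 ± 3.24 CPM in sham (SD, n = 5 each), and 7.39 ± 0.984 CPM in naive rats (SD, n = 4). Its log2 fold change was 3.68 against sham (edgeR adjusted p = 2.68e-09) and 2.02 against mTBI (edgeR adjusted p = 1.80e-05). miR-129-5p averaged 71.4 ± 8.10 CPM after sTBI, 16.3 ± 1.72 CPM after mTBI, 9.50 ± 1.98 CPM in sham and 9.45 ± 3.50 CPM in naive rats, and its log2 fold change was 2.91 against sham and 2.13 against mTBI, both called.

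For miR-323-3p, miR-434-3p, miR-134-5p and miR-136-3p of the Dlk1-Dio3 region the sham mean stood between those of sTBI and naive rats. miR-323-3p averaged 36.9 ± 4.69 CPM after sTBI, 10.2 ± 1.89 CPM after mTBI, 7.46 ± 1.20 CPM in sham and 3.22 ± 0.812 CPM in naive rats (SD). miR-434-3p averaged 274 ± 33.4 CPM after sTBI, 98.7 ± 13.5 CPM after mTBI, 86.0 ± 17.6 CPM in sham and 35.6 ± 8.22 CPM in naive rats (SD). Both were called higher in sTBI than in sham, with log2 fold changes of 2.30 and 1.67, and in sTBI than in mTBI, with 1.85 and 1.47. miR-134-5p averaged 74.0 ± 14.3 CPM after sTBI, 45.8 ± 4.48 CPM after mTBI, 53.0 ± 5.23 CPM in sham and 24.7 ± 5.91 CPM in naive rats (SD), and it was not called against sham (log2 fold change 0.48, edgeR adjusted p = 0.234). miR-136-3p was not called against sham or mTBI either, with log2 fold changes of 0.48 and 0.47 (edgeR adjusted p = 0.261 and 0.193), while miR-382-5p was called against both (log2 fold change 0.75 and 1.12).

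The muscle miRNAs had another order of groups. The merged miR-133a-3p and miR-133b-3p feature averaged 742 ± 225 CPM after sTBI, 2053 ± 836 CPM after mTBI, 1599 ± 729 CPM in sham (SD, n = 5 each) and 289 ± 145 CPM in naive rats (SD, n = 4). It was higher in sTBI than in naive rats and lower in sTBI than in mTBI rats (log2 fold change -1.47, edgeR adjusted p = 0.0191), and the difference from sham was not called (log2 fold change -1.11, edgeR adjusted p = 0.136). miR-1b had the same order and was lower in sTBI than in mTBI rats (log2 fold change -1.09, edgeR adjusted p = 0.0454). These were the only 2 miRNAs called lower in sTBI than in mTBI (0.281% of 713). None of the 4 miRNAs lower in sTBI than in naive rats was called against sham or mTBI, with log2 fold changes against sham from -0.39 to -0.07.

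**Figure D5:**
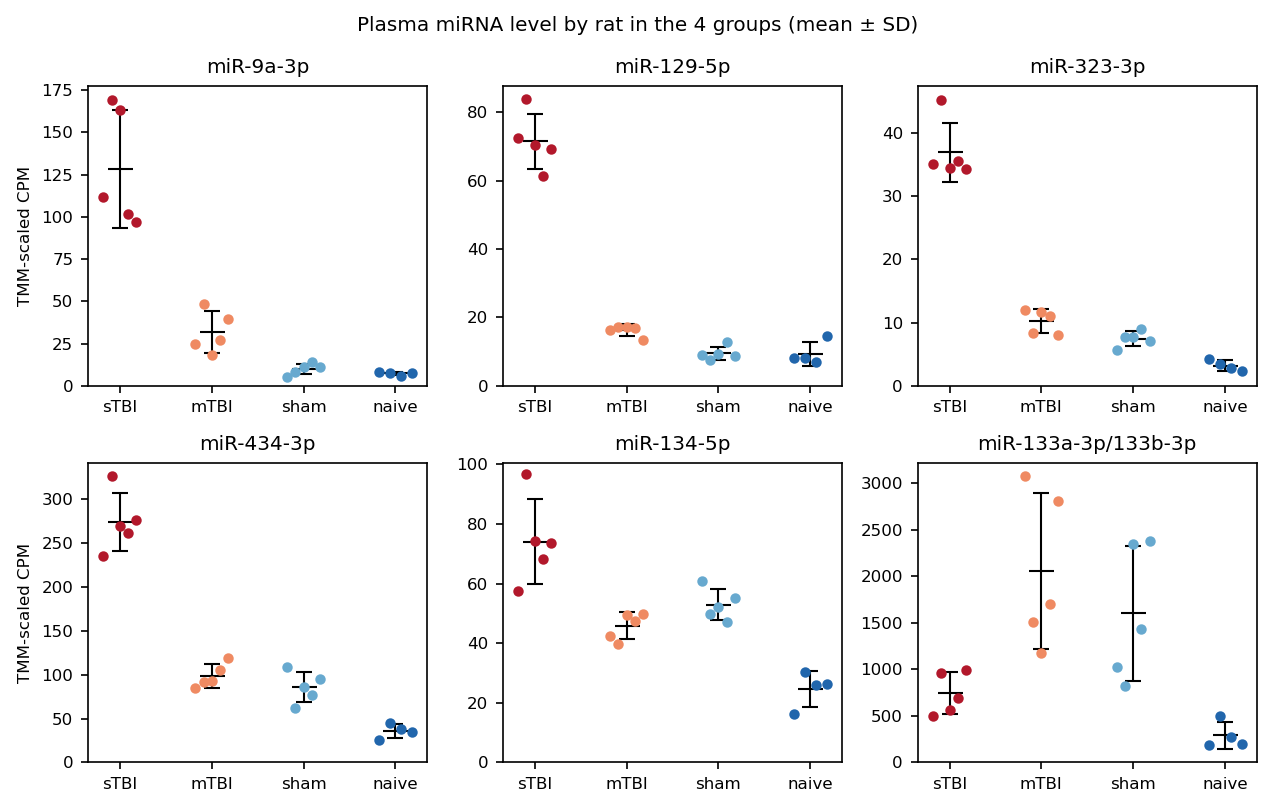
TMM-scaled CPM (y axis, from 0) of 6 miRNAs in the sTBI, mTBI, sham and naive libraries (x axis), each point 1 rat, with mean and SD in black. The sTBI libraries are highest for miR-9a-3p, miR-129-5p, miR-323-3p and miR-434-3p, while for the merged miR-133a-3p and miR-133b-3p the mTBI and sham means of 2053 and 1599 CPM lie above the sTBI mean of 742 CPM.

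Fragments of tRNA were the other large class, and transfer RNAs of glycine and glutamate made 95.46 to 97.26% of tRNA UMIs after sTBI and 96.04 to 97.19% in naive rats. Summed by amino acid and anticodon, none of 47 isoacceptors was called (0.0%) between sTBI and naive, with 7 at an unadjusted p under 0.05 and 2 called by DESeq2. These 2, Val-TAC and Leu-TAA, also had the smallest p from edgeR. Val-TAC was at 108, 130, 163, 114 and 80.7 CPM of tRNA UMIs after sTBI, against 71.7, 68.7, 44.4 and 87.7 CPM in naive rats, with an overlap of sTBI library 5 and naive library 4 (log2 fold change 0.81, SE 0.25, edgeR adjusted p = 0.156). Leu-TAA was at 21.95 to 36.4 CPM after sTBI and 34.5 to 47.8 CPM in naive rats, again with an overlap (log2 fold change -0.63, SE 0.22, edgeR adjusted p = 0.191).

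The 6 most abundant isoacceptors had negative log2 fold changes that were not called, -0.63 for Gly-CCC, -0.53 for Gly-GCC, -0.82 for Glu-CTC, -0.55 for Glu-TTC, -0.94 for His-GTG and -0.11 for Asp-GTC (edgeR adjusted p from 0.244 to 0.821). None of the 332 single tRNA features was called (0.0%), with 64 at an unadjusted p under 0.05 and 18 called by DESeq2. With naive libraries 1 and 3 left out, 13 of 349 features were called lower, with log2 fold changes from -2.05 to -1.10. Of these, 9 were His-GTG, which has 12 near-identical features in all, 2 were Glu and 2 were Gly. In that setting none of the 47 isoacceptors was called, His-GTG included, so these calls did not hold for sums by anticodon. Without naive library 1 alone, 1 feature, of Glu-CTC, was called lower (log2 fold change -1.77, edgeR adjusted p = 0.0281). Copies of 1 tRNA gene are near-identical, so the split of reads between such features is uncertain. These values are relative to other tRNAs, and the library scale mattered for their sign: the median log2 fold change over isoacceptors was 0.03 with TMM factors, 0.56 with tRNA totals and -0.52 with spike-in totals.

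tRNA was also set against the spike-in RNA of each library. There were 7.55, 5.11, 5.26, 5.79 and 6.04 tRNA UMIs per spike-in UMI after sTBI, against 9.21, 11.1, 23.0 and 10.7 in naive rats. The groups did not overlap, and the ratio of their geometric means was 0.468. The exact two-sided permutation p was 0.0159, the smallest that 5 against 4 libraries allow. It was 0.127 after adjustment over the 8 library measures compared. A single measure at this smallest p cannot come under 0.05 after that adjustment, so the adjusted test could not decide on this difference. Per miRNA UMI the tRNA UMIs were 0.712 to 1.14 after sTBI and 0.722 to 1.67 in naive rats, with naive library 1 lowest of its group (ratio of geometric means 0.693, exact permutation p = 0.111). Of the other measures, miRNA UMIs per spike-in UMI had a ratio of 0.675 (exact permutation p = 0.127), and piRNA UMIs per miRNA UMI one of 0.601 (exact permutation p = 0.0952).

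Features named as piRNAs, small RNAs best known from the germline, were few in plasma, with 74585 to 91450 UMIs after sTBI and 101773 to 245607 in naive rats. None of 77 tested was called (0.0%), with 9 at an unadjusted p under 0.05 and 4 called by DESeq2. The smallest edgeR p was that of rno_piR_022904, with a log2 fold change of 1.84 (SE 0.59, edgeR adjusted p = 0.236), followed by rno_piR_025314 with 0.87 (SE 0.29, edgeR adjusted p = 0.236). The feature rno_piR_001199 had a log2 fold change of -1.32 (SE 0.50, edgeR adjusted p = 0.236), and it and rno_piR_022904 were called in the fit of the sTBI and naive libraries alone.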

How the data were processed

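Small RNA was sequenced from the tail-vein plasma of 19 rats with the QIAseq kit. The authors trimmed reads with cutadapt, discarded inserts under 16 bp and UMIs under 10 bp, and used Bowtie to map the remaining reads step by step to miRBase 21 miRNAs and other RNA (build Rnor_6.0, from the submitters' processing notes). The deposited tables hold raw read counts and raw UMI counts per feature, with no normalization, and the summary of reads per class is also a count. Whether the counting used strand is not given in the sources used here. UMI counts leave out PCR copies, so they were tested, and read counts served as an alternative.

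Groups came from the sample titles. All 748 miRNAs were read, and 713 passed filterByExpr with a minimum count of 10. edgeR 4.0.16 in R 4.3.3 fitted the 4 groups of 19 libraries together (TMM factors, robust quasi-likelihood, 15 residual degrees of freedom), since this gives a steadier estimate of the spread than 9 libraries, and Benjamini-Hochberg adjustment was made over all features of a class. tRNA (386 features) and piRNA (104) were fitted in the same way within their own tables. Library measures were compared by exact two-sided permutation tests over 126 divisions. Log2 ratios of features used a pseudocount of 1, and so did the log2 CPM in the search for outlying libraries. Alternatives were DESeq2 1.42.0, read counts, other filters and scalings, counts under 10 set to 0, the 2 groups alone, a replicate block, and libraries left out. The procedure was tested on simulated data. Tables and figures were made in Python 3.11.15 with scipy 1.17.1, numpy 2.4.6, matplotlib 3.10.9 and pandas 2.3.3.

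The comparison, the 8 lists and the tests were chosen with earlier results of these data known, and the lists come from general knowledge of tissue expression. Named miRNAs were the 15 called higher with the largest log2 fold change, up to 10 called lower, the candidates and the normalizer of the study, up to 4 of each list with the smallest p, the other arm of each, and the 10 most abundant. The remaining called miRNAs and miR-124-3p, miR-128-3p, miR-206-3p, miR-410-3p and miR-411-5p were added after their values were seen. So were miR-219a-5p, miR-219a-1-3p, miR-338-3p, miR-488-3p and the miRNAs that share a seed with a called one. The table of other RNAs and the PCR and human measurements of the study were not used here. Each library is 1 rat, so p-values set a difference against the spread between libraries. Differences between rats and between library preparations cannot be told apart in that spread. In the main edgeR fit it was estimated from all 19 libraries.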

Additional observations from a re-analysis of the deposited data

Results flagged for a closer look

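Some single libraries lay far from the rest of their group, by a gap to the nearest library, divided by the range of the group, that passed Dixon's 95% critical value. For miRNAs the gap and the range were taken on the log2 scale, with 1 added to the CPM. Among 158 groups of values tested, 8 were found, and chance alone gives about 1 in 20. In the sTBI group, the highest library stood off for miR-323-3p (0.86, sTBI library 2) and for miR-15a-3p (0.8, sTBI library 4). In the naive group, the highest library stood off for miR-129-5p (0.83, naive library 4) and miR-873-3p (0.929, naive library 2), and the lowest stood off for miR-487b-3p (0.971) and miR-15a-3p (0.949), both at 0 in naive library 2, where no miRNA count from 1 to 9 is listed. The tRNA UMIs per miRNA UMI (0.856) and the piRNA UMIs per miRNA UMI (0.892), both on the log2 scale, had naive library 1 as the lowest. miR-323-3p and miR-129-5p were called without each of the 9 libraries in turn, whereas miR-487b-3p and miR-873-3p were not.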

How the results depend on the processing

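The number of miRNA calls moved with the tool and with the naive libraries. Against 35 miRNAs called (31 higher, 4 lower), edgeR called 9 without naive libraries 1 and 3 and 11 when mTBI libraries 2 and 5 were also left out, in each case all higher and all among the 35. With 1 library left out at a time the count ranged from 15, without naive library 1, to 64, without naive library 2. It was 17 without naive library 3, 57 without naive library 4 and 22 without sTBI library 2 or 4. Read counts gave 21 and spike-in totals 15. DESeq2 called 68 (43 higher, 25 lower), and 95 on read counts of the sTBI and naive libraries alone. In the tRNA features DESeq2 called 18, edgeR called 13 of 349 without naive libraries 1 and 3, and leaving out 1 library gave 0 to 1. Without naive libraries 1 and 3 edgeR called none of the 47 isoacceptors. DESeq2 called 2 tRNA isoacceptors and 4 piRNAs, and edgeR called 2 piRNAs in sTBI and naive alone. The 9 miRNAs called without naive libraries 1 and 3 were called in each of 21 alternatives.

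The titles do not say whether libraries with the same replicate number were handled as pairs, and correlations cannot settle it. Deviations of libraries with the same number correlated at 0.141, 0.153, 0.0262 and -0.0248. The highest correlation was 0.393, between sTBI library 3 and naive library 1. sTBI library 1 correlated best with naive library 1, but sTBI library 2 with naive library 4. With a replicate block, edgeR called 22 miRNAs, all among the 35, and no tRNA or piRNA.

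Some miRNAs and measures that were not called changed sign. Without naive libraries 1 and 3, and then also without mTBI libraries 2 and 5, the log2 fold changes were -0.025 and -0.012 for rno-miR-153-3p (-0.0015 with spike-in totals), 0.11 and 0.13 for rno-miR-29a-3p, 0.52 and 0.54 for rno-miR-29c-3p, 0.10 and 0.12 for rno-miR-29c-5p, 0.25 and 0.27 for rno-miR-99a-5p, and 0.46 and 0.49 for rno-miR-143-3p. rno-miR-802-5p was at 0.00054 with library totals and 0.0064 without all 4 libraries, and rno_piR_001200 was at 0.061 with library totals. rno-miR-200c-3p ranged from -0.055 to 0.83 with 1 library left out. The difference in library measure: total miRNA counts was 349250 with read counts and 330770 without naive libraries 1 and 3, against -501270. The library measure: percent in the 10 most abundant miRNAs differed by -0.398 with read counts and -1.73 without naive libraries 1 and 3, and by -0.894 to 1.73 with 1 library left out, against 0.318. The cause of these changes was not tested. Low counts limit miRNAs such as miR-487b-3p, whose naive values rest on few UMIs.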

Other observations

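Some values lay outside the comparisons above and were chosen after they were seen. miR-9b-5p, antisense to miR-9a-3p, was at 3.51, 5.23, 5.74, 3.70 and 5.44 CPM after sTBI, against 1.00, 0, 0 and 0 CPM in naive rats, and it was not called (edgeR adjusted p = 0.122). miR-142-5p, a blood cell miRNA, was lower in every sTBI library than in every naive library, with 323 to 432 CPM after sTBI and 445 to 768 CPM in naive rats, and it was not called (log2 fold change -0.71, edgeR adjusted p = 0.0720). miR-199a-3p, of stromal cells, was at 4191 to 11275 CPM after sTBI, against 27502 and 26337 CPM in naive libraries 1 and 3 and 7623 and 6705 CPM in naive libraries 2 and 4. Of all reads, tRNA took 20.96 ± 1.83% after sTBI (SD, n = 5) and 33.3 ± 7.93% in naive rats (SD, n = 4), and reads with too short an insert took 20.7 ± 3.11% after sTBI and 13.9 ± 3.13% in naive rats.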
